A study of Mus musculus with 12 samples.

Results

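Oxidative phosphorylation was described through 103 of the 36008 gene identifiers in the deposited expression table, for the gastrocnemius and quadriceps of mice that were flown or kept on the ground. Genes were taken by symbol, leaving out symbols that contain -ps. They were the 13 genes of the mitochondrial genome (mt-) and 90 nuclear genes. The nuclear genes have the symbols of the subunits of complexes I to V (Nduf, Sdh, Uqcr and Cyc1, Cox4 to Cox8, and Atp5). The rule uses no measured value, but it was set with earlier results of these data known. By symbol, complex I held 40 nuclear and 7 mitochondrial genes, complex II 4 and 0, complex III 9 and 1, complex IV 19 and 3, and complex V 18 and 2. TPM, an abundance per transcript length that is scaled within each library, was above 5 in at least 1 library for 95 of the 103, namely all 13 mitochondrial and 82 nuclear genes. The 8 that did not pass were Ndufa11b, Ndufs6b, Cox4i2, Cox6b2, Cox6c2, Cox7b2, Cox8c and a second identifier named Atp5o. Ndufa11b, Ndufs6b, Cox6c2 and Ndufb4c are annotated as processed pseudogenes. Ndufb4c passed, and it is counted among the nuclear genes and in the nuclear sums below. Ndufa4 and Ndufa4l2 were counted under complex I by symbol, and counts with both moved to complex IV are given below.

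Oxidative phosphorylation is carried out in the inner mitochondrial membrane. Complex I (NADH dehydrogenase) and complex II (succinate dehydrogenase) feed electrons through ubiquinone to complex III (cytochrome bc1), cytochrome c carries them to complex IV (cytochrome c oxidase), and complex V (ATP synthase) uses the resulting proton gradient to make ATP. Complexes I, III, IV and V are assembled from subunits of both genomes, whereas complex II is wholly nuclear, and slow-twitch muscle fibers are known for a higher mitochondrial content than most fast-twitch fibers.

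RNA came from the left hind limb of 6 female mice, 3 ground controls (M02, M03 and M08) and 3 flown mice (M11, M12 and M20), and both muscles of each mouse were sequenced, which gave 12 libraries in 4 groups of 3. The mice were 30 weeks old at the start, and flight lasted 9 weeks on the International Space Station while the ground mice lived in matched hardware. Both groups received PBS under the skin every 2 weeks as the vehicle arm of a larger study, and their carcasses were frozen and thawed before dissection. The labels name the strain as C57BL/6 and the study's text as BALB/c, and no comparison rested on the strain. The muscles were taken whole, so fewer fibers of a type and less RNA per fiber cannot be told apart, and p-values measure the spread between 3 mice per group.

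The listed values of a library summed to between 923295 and 966638 TPM, and TPM carries no counting depth. The ground quadriceps library of M08 listed the fewest genes above 0, 18172 against 20291 to 21265 in the others. A pair of loci, Gm12895 and Gm12896, held 15.03% to 15.28% of the listed TPM in ground gastrocnemius, 10.02% to 12.06% in flight gastrocnemius, 6.68% to 8.70% in ground quadriceps and 5.63% to 5.89% in flight quadriceps, and their share enters every other TPM value through the scaling. The 6 skeletal myofiber markers summed to 74450 to 80040 TPM in gastrocnemius and 96550 to 108400 in quadriceps libraries.

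In flight, the transcripts of the mitochondrial genome and those of the nuclear subunits lay on opposite sides of the ground level in the gastrocnemius. The summed TPM of the 13 mitochondrial genes was 169036 (M02), 154236 (M03) and 176225 (M08) in ground gastrocnemius and 202645 (M11), 220355 (M12) and 204658 (M20) in flight gastrocnemius. All 3 flight libraries lay above all 3 ground libraries, with the mean 25.7% higher, and the share of all listed TPM was 16.7% to 19.1% on the ground and 21.4% to 23.3% in flight. With Gm12895 and Gm12896 left out of the listed TPM, the share was 19.7% to 22.4% on the ground and 23.8% to 26.0% in flight. The summed TPM of the nuclear subunits was 21777 to 23072 in ground and 17836 to 21108 in flight gastrocnemius, with no overlap and a mean 14.97% lower. In the quadriceps the mitochondrial sums overlapped, at 159658 to 184829 on the ground and 166411 to 193419 in flight, whereas the nuclear sums did not, at 25910 to 28066 and 21030 to 24145, with a mean 14.8% lower in flight.

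**Figure D1:**
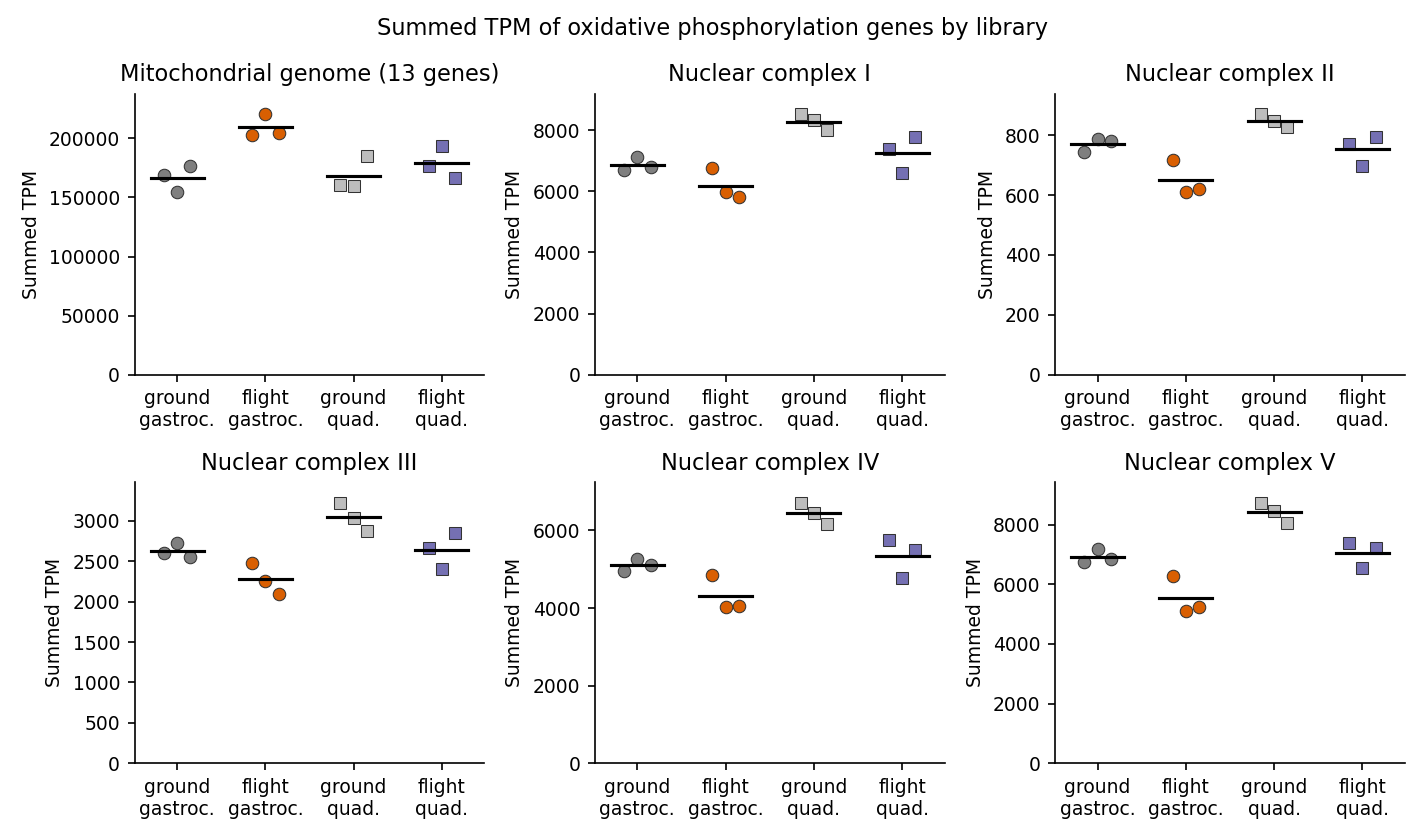
Summed TPM (vertical axis, from 0) of the mitochondrial genome and of the nuclear subunits of complexes I to V in the 12 libraries, with each point a library and each bar a group mean. The flight gastrocnemius points lie above the ground points in the mitochondrial panel and below them in the panels of complexes II to V.

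The nuclear sums of complexes II to V were lower in flight in both muscles without overlap, and complex I overlapped in the gastrocnemius on the TPM scale. The complex I sum was 6705 to 7114 TPM in ground and 5821 to 6779 in flight gastrocnemius, a mean 9.96% lower with the M11 library inside the ground range, and 7993 to 8522 against 6605 to 7786 in the quadriceps. As a percent of the listed TPM, complex I in the gastrocnemius was 0.725% to 0.7705% on the ground and 0.621% to 0.716% in flight, without overlap. For complex II the sum was 745.5 to 788.0 against 610.3 to 716.6 in the gastrocnemius, a mean 15.8% lower. For complex III it was 2557 to 2731 against 2099.8 to 2479.7, a mean 13.3% lower. Complex V had the lowest flight mean relative to its ground mean in the gastrocnemius, at 6764 to 7184 against 5118 to 6281 TPM and 19.98% lower, and complex IV was 15.6% lower there. In the quadriceps the differences were 12.3% (I), 11.2% (II), 13.2% (III), 17.1% (IV) and 16.3% (V) lower, so that the order of the complexes was not the same in both muscles. Within the mitochondrial genome, the gastrocnemius sums were 28.2% higher for complex I, 21.8% for complex III, 13.6% for complex IV and 31.7% for complex V. As a percent of the listed TPM, mitochondrial complex IV overlapped, at 3.32% to 3.75% on the ground and 3.70% to 4.38% in flight. These sums leave out the TPM listed under the chromosome 1 copies described below. Differences between complexes were not tested.

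Gene by gene, 0 of the 95 genes passed an adjusted p under 0.05 with a change over 1.5-fold in the gastrocnemius, where 24 of 10481 genes tested did (0.229%). At an unadjusted p under 0.05, 40 of the 82 nuclear genes were lower in flight and 3 higher, against 6.55% and 8.52% of all genes, and 10 of the 13 mitochondrial genes were higher and 2 lower. Ground and flight libraries did not overlap for 44 nuclear genes that were lower and 3 that were higher (all genes, 8.55% and 12.5%), and for 10 mitochondrial genes that were higher. The median log2 fold change was -0.26 over the nuclear and 0.31 over the mitochondrial genes, beside 0.02 over all genes tested. The test was that of limma on log2(TPM + 1), the scale of every log2 fold change below, and p-values were adjusted over all genes tested by the Benjamini-Hochberg method. Rescaling the libraries without the mitochondrial genes left the nuclear median at -0.21. Without the flight gastrocnemius library of M11, 11 genes were called, all nuclear and lower (Atp5g2, Atp5l, Cox5a, Cox7a1, Cox7a2, Ndufb4, Ndufb6, Ndufb8, Ndufs3, Sdhd and Uqcrfs1).

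By complex, the gastrocnemius median was -0.17 for complex I (31 of 38 genes below 0, 13 of them at an unadjusted p under 0.05, beside 46.4% of all genes below 0), -0.32 for complex II (4 of 4, 3), -0.18 for complex III (9 of 9, 4), -0.31 for complex IV (14 of 14, 7) and -0.33 for complex V (16 of 17, 13). With Ndufa4 and Ndufa4l2 moved, complex IV had a median of -0.26 and complex I stayed at -0.17. In the quadriceps the medians were -0.19 (36 of 38 below 0), -0.27 (3 of 4), -0.15 (9 of 9), -0.31 (14 of 14) and -0.25 (15 of 17), beside 47.9% of all genes below 0. There, 1 gene was called, Atp5g2, beside 3 of all genes (0.0286%). At an unadjusted p under 0.05, 38 nuclear genes were lower and 0 higher, against 5.18% and 5.66% of all genes, and 43 were lower without overlap, against 8.12%. The nuclear median was -0.23 and the mitochondrial median 0.08, with 0 mitochondrial genes at an unadjusted p under 0.05.

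**Figure D2:**
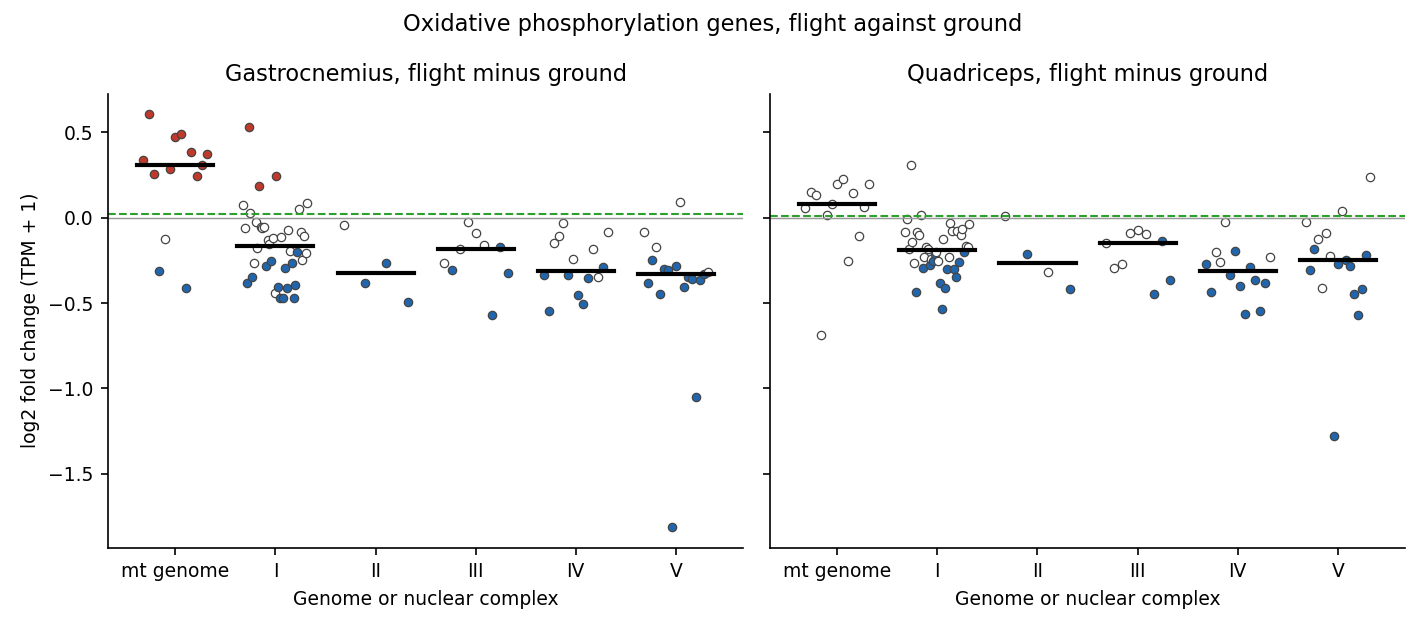
Log2 fold change of flight over ground for each gene tested, by muscle and by complex, with nuclear and mitochondrial genes apart. Filled red and blue points have an unadjusted p under 0.05 (higher and lower), black bars are medians and the dashed line is the median of all genes, and the nuclear groups lie below it in both muscles while the mitochondrial group has a median of 0.31 in the gastrocnemius and 0.08 in the quadriceps.

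The gastrocnemius and quadriceps came from the same mice, so that the comparisons of both muscles are not independent of each other. Of the 82 nuclear genes, 72 had a log2 fold change below 0 in both muscles, and 32 were lower without overlap in both (39.0%), against 308 of all 10481 genes (2.94%). Of the mitochondrial genes, 9 were above 0 in both muscles and 2 below.

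Complex V held the nuclear genes with the largest absolute log2 fold changes in flight gastrocnemius, Atp5g2 and Atp5l. Atp5g2, 1 of 3 genes for the membrane c-ring that turns with proton flow (chromosome 15, GRCm38), was listed at 17.9, 21.6 and 19.9 TPM in ground and 9.995, 3.87 and 2.85 in flight gastrocnemius. In quadriceps it was at 35.0, 43.5 and 33.3 on the ground and 14.4, 15.3 and 14.3 in flight. Every flight library lay below every ground library of its muscle. Atp5g2 fell by 1.28 on the log2 scale in the quadriceps (SE 0.12, limma adjusted p = 0.0445), a call that was lost whichever 1 of the 6 quadriceps libraries was left out, and the gastrocnemius difference was -1.81 (SE 0.35, adjusted p = 0.112). As a share of the 3 c-ring genes Atp5g1, Atp5g2 and Atp5g3, it was 2.78% ± 0.223 (SD, n = 3) in ground and 0.923% ± 0.509 in flight gastrocnemius, and 4.49% ± 0.721 and 2.16% ± 0.280 in quadriceps, with no overlap in either muscle. The abundant c-ring genes differed less, with log2 fold changes of -0.31 for Atp5g1 and -0.29 for Atp5g3 in the gastrocnemius and -0.22 and -0.27 in the quadriceps, and none passed the test. Of the 31-base stretches of Atp5g2, 37.5% also occur in the pseudogene Gm10175. Summed with the pseudogenes Gm10175, Gm10231 and Gm17271, the level was 142.3 to 160.1 TPM against 105.3 to 139.9 in the gastrocnemius and 145.8 to 177.1 against 89.4 to 130.2 in the quadriceps, still without overlap, at -0.30 (adjusted p = 0.293) and -0.53 (adjusted p = 0.364).

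Atp5l, subunit g of the membrane part of ATP synthase, was at 459, 522 and 499 TPM in ground and 315, 186 and 229 in flight gastrocnemius. In quadriceps it was at 811, 772 and 688 on the ground and 618, 477 and 443 in flight. The groups did not overlap in either muscle, and the log2 fold changes were -1.05 (SE 0.18, adjusted p = 0.0945) and -0.57 (SE 0.13, adjusted p = 0.298). Summed with its pseudogenes, Atp5l was at -0.54 (adjusted p = 0.140) in the gastrocnemius and -0.37 (adjusted p = 0.357) in the quadriceps, again without overlap. Atp5mpl, the 6.8 kDa proteolipid subunit, was at 324.1, 316.4 and 319.4 TPM in ground and 297, 228 and 226 in flight gastrocnemius. Its log2 fold change was -0.36 there (adjusted p = 0.221) and -0.42 in the quadriceps (adjusted p = 0.344), with flight below ground in every library of both muscles.

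The catalytic head of ATP synthase showed unequal values for its main subunits. Atp5b, the β subunit that holds the catalytic sites and the most abundant nuclear gene of the complex, was at 1590.3, 1732 and 1609 TPM in ground and 1424, 1156 and 1216 in flight gastrocnemius, and its quadriceps means were 1785 ± 94.0 and 1446 ± 112 (SD, n = 3). The log2 fold changes were -0.38 (SE 0.09, adjusted p = 0.157) and -0.31 (SE 0.08, adjusted p = 0.329), without overlap. Atp5a1, the α subunit, was at 381, 399 and 367 TPM on the ground and 376, 349 and 358 in flight, which overlapped, and its log2 fold changes were -0.08 (adjusted p = 0.609) and -0.02 (adjusted p = 0.915). Atp5j, the coupling factor F6 of the stalk, was at 481, 503 and 514 TPM on the ground and 445, 319.8 and 374 in flight gastrocnemius (log2 fold change -0.41, adjusted p = 0.217). Gm11966, listed at a mean of 678 TPM beside 543 for Atp5j, holds 1.78% of the 31-base stretches of Atp5j. Summed with Gm11966, the gastrocnemius levels were 1124 to 1183 on the ground and 1211 to 1353 in flight, higher by 0.15 (adjusted p = 0.342).

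**Figure D3:**
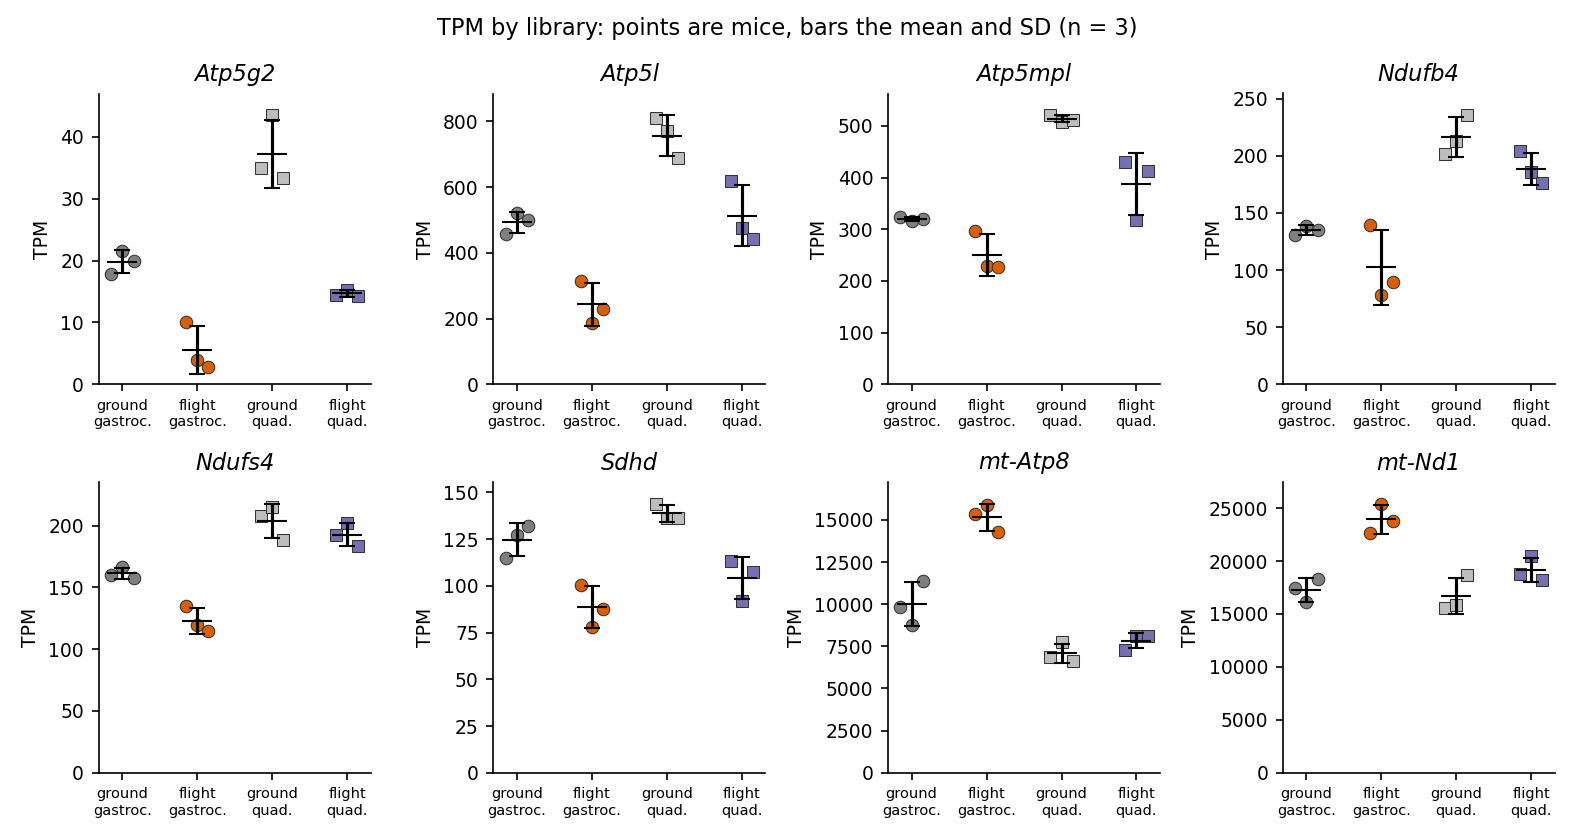
TPM (vertical axes, from 0) of 8 genes in the 12 libraries, with each point a mouse and bars the mean and SD of 3. Flight lies below ground for Atp5g2, Atp5l, Atp5mpl and Sdhd in both muscles, and above ground for mt-Nd1 and mt-Atp8 in the gastrocnemius.

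In complex IV, all 14 genes tested were below 0 in both muscles as listed, and none passed the test. Cox7c shares 31-base stretches with the pseudogenes Gm10012 and Gm12338. It was listed at a mean of 60.5 TPM, beside 317 and 455 for them. Summed with its pseudogenes, Cox7c was at 744.6 to 796.4 TPM in ground and 807.7 to 890.3 in flight gastrocnemius. That sum was higher without overlap (0.15, limma adjusted p = 0.346), opposite in direction to Cox7c alone. In the quadriceps the sum was at -0.12 with overlap. Cox5a, a nuclear subunit, was at 337, 343 and 335 TPM in ground and 273, 224 and 204 in flight gastrocnemius. Its log2 fold change was -0.54 (SE 0.11, adjusted p = 0.125) there and -0.44 (adjusted p = 0.378) in the quadriceps. Cox4i1, the common form of the largest nuclear subunit, was at -0.34 and -0.27, and its lung form Cox4i2 stayed at 0.873 to 2.50 TPM in every library. Cox7a2 was at 128, 148 and 143 TPM in ground and 121, 90.0 and 86.3 in flight gastrocnemius, a log2 fold change of -0.51 (adjusted p = 0.185), and at -0.56 (SE 0.12, adjusted p = 0.285) in the quadriceps. Both were lower in flight without overlap in either muscle. Cox6a2 and Cox8b, the heart and skeletal muscle forms of their subunits, overlapped between ground and flight in both muscles, with log2 fold changes of -0.03 and -0.09 in the gastrocnemius and -0.02 and -0.23 in the quadriceps. Cox7a1, the muscle form of subunit 7a, was at -0.46 (adjusted p = 0.231) and -0.40 (adjusted p = 0.397), without overlap.

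The shares of muscle and common forms differed between groups by a few percentage points. Cox6a2 made up 95.1%, 95.3%, 95.9% and 96.5% of the summed TPM of Cox6a1 and Cox6a2 in ground gastrocnemius, flight gastrocnemius, ground quadriceps and flight quadriceps. Cox8b made up 92.8%, 93.7%, 94.7% and 95.3% of Cox8a and Cox8b in the same order. Cox7a1 made up 63.5% ± 1.14 (SD, n = 3) and 64.3% ± 1.39 of Cox7a1 and Cox7a2 in ground and flight gastrocnemius, and 62.4% ± 1.87 and 65.0% ± 1.14 in the quadriceps, where flight lay above ground without overlap. These shares were not tested.

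In complex II the values differed by subunit, and differences between subunits were not tested. Sdhd, a membrane anchor, was at 115, 127 and 132 TPM in ground and 100.3, 77.9 and 87.4 in flight gastrocnemius, and at 144, 136.1 and 136.2 against 113, 91.7 and 107 in quadriceps. The groups did not overlap, at -0.49 (SE 0.11, adjusted p = 0.138) and -0.42 (SE 0.09, adjusted p = 0.298). Sdhb, the iron-sulfur subunit, was at -0.38 (adjusted p = 0.169) in the gastrocnemius and -0.21 in the quadriceps. Sdha, the flavoprotein that oxidizes succinate, overlapped in both, with log2 fold changes of -0.04 and 0.01.

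In complex III, Uqcrfs1, the Rieske iron-sulfur protein, had the largest difference. It was at 180.1, 196 and 179 TPM in ground and 155, 113 and 109 in flight gastrocnemius, and at 219, 188 and 196 against 157, 128 and 158 in quadriceps. Flight lay below ground without overlap, at -0.57 (SE 0.14, adjusted p = 0.156) and -0.44 (SE 0.10, adjusted p = 0.298). Uqcrc1, a core protein, overlapped in both muscles at -0.09 and -0.07.

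Complex I was the most mixed in the gastrocnemius, with 31 of 38 genes below 0, beside 36 of 38 in the quadriceps. Ndufb8, an accessory subunit of the membrane arm, was at 332, 362 and 331 TPM in ground and 302, 213 and 231 in flight gastrocnemius, and Ndufs4, an accessory subunit of the matrix arm, at 159.8, 166 and 158 against 135, 119.9 and 114. Neither overlapped, with log2 fold changes of -0.47 (adjusted p = 0.195) and -0.39 (SE 0.08, adjusted p = 0.135). In the quadriceps Ndufb8 was at -0.41 and Ndufs4 at -0.08, and Ndufb6 of the membrane arm had the smallest p of the complex there (-0.53, SE 0.10, adjusted p = 0.274). In the electron input module, Ndufs1 was at -0.19 and -0.08, Ndufv1 at -0.11 and -0.16, Ndufv2 at -0.20 and -0.17 and Ndufv3 at 0.09 and -0.03 in gastrocnemius and quadriceps. The 3 nuclear genes higher in flight gastrocnemius at an unadjusted p under 0.05 were all in this complex. These were Ndufa12 (24.2, 30.4 and 38.2 against 44.2, 45.3 and 43.6 TPM, log2 fold change 0.53, SE 0.15, adjusted p = 0.210), Ndufa5 (0.19, adjusted p = 0.275) and Ndufb4c (0.25, adjusted p = 0.245). All 31-base stretches of Ndufb4c, a processed pseudogene, occur in its relative Ndufb4, and 20.2% of those of Ndufa12 in the locus Gm15920. Their levels, and that of Ndufb4, are therefore uncertain.

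All mitochondrial genes that share little sequence with other genes were higher in flight gastrocnemius. mt-Nd1, a membrane subunit of complex I, was at 17488, 16090.3 and 18341 TPM on the ground and 22698, 25436 and 23753 in flight, which put the log2 fold change at 0.47 (SE 0.08, adjusted p = 0.0945). mt-Atp8, a membrane subunit of ATP synthase, was at 9806, 8790.2 and 11403 TPM against 15344, 15856 and 14255, which put the log2 fold change at 0.61 (SE 0.10, adjusted p = 0.0978). Neither overlapped, and neither passed the test. mt-Cytb, an electron-carrying subunit of complex III, was at 0.29, and mt-Nd6, the only protein gene on the other strand of that genome, at 0.37. These 4 share under 10% of their 31-base stretches with another gene, and all 4 were above the ground range, with a median of 0.42. Of the rest, mt-Nd2 (0.49), mt-Nd4 (0.38), mt-Atp6 (0.34), mt-Nd5 (0.31), mt-Co1 (0.25) and mt-Nd4l (0.25) were also above it, whereas mt-Nd3, mt-Co2 and mt-Co3 were at -0.41, -0.31 and -0.12 and overlapped the ground range. In the quadriceps the 13 values ran from -0.69 (mt-Co2) to 0.23 (mt-Nd2).

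The 3 exceptions have near-identical copies on chromosome 1. Between chr1:24611535 and chr1:24616197 (GRCm38, minus strand) lie the annotated copies Gm28439, Gm10222, Gm28438, Gm28437, Gm10925, Gm28661 and Gm29216 of mt-Nd4, mt-Nd4l, mt-Nd3, mt-Co3, mt-Atp6, mt-Co2 and mt-Co1. The ends below are shown because a 50-base read that does not cross them cannot be assigned to one or the other. Each sequence runs 5′ to 3′ on the gene's strand from the GRCm38 transcript, and capitals mark the bases that the copy lacks at the end, or the base that differs.
mt-Co2, last 30 bases: ttcgaaaactgatctgcttcaataattTAA
Gm28661, its last bases: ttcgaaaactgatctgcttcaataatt
mt-Co3, last 30 bases: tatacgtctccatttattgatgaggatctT
Gm28437, its last bases: tatacgtctccatttattgatgaggatct
mt-Nd3, first 30 bases: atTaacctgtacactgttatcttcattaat
Gm28438, first 30 bases: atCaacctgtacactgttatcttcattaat
The 681 aligned bases of mt-Co2 and the 783 of mt-Co3 were identical to their copies, and mt-Nd3 differed from its copy by T3C over 345 bases, counted from 1 at the first base of mt-Nd3. mt-Co2, mt-Co3 and mt-Nd3 have 3, 1 and 3 bases past the end of the copy. Of the 31-base stretches of mt-Co2, 100% also occur in other listed genes, so none is particular to it, those over its end included.

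The split of TPM between a mitochondrial gene and its copy varied by group. mt-Co2 held 1.44% of the summed TPM of mt-Co2 and Gm28661 in ground and 0.962% in flight gastrocnemius, and 2.37% and 1.32% in quadriceps. mt-Nd3 held 28.2% and 21.2% of its pair in gastrocnemius and 50.7% and 43.4% in quadriceps. Summed with its copy, mt-Co2 was at 25464 to 28014 TPM in ground and 30502 to 34802 in flight gastrocnemius, higher without overlap (0.26, SE 0.08, adjusted p = 0.229), opposite in direction to mt-Co2 alone. mt-Co3 with Gm28437 was at 0.09 with overlap, and mt-Nd3 with Gm28438 at -0.01. mt-Co1 with Gm29216 was at 0.17 (adjusted p = 0.400) and overlapped the ground range, unlike mt-Co1 alone. Gm29216 aligns only to the last 492 of the 1545 bases of mt-Co1. Gm13340, which holds 45.2% of the 31-base stretches of mt-Co1, was not in that sum. mt-Atp6 with Gm10925 was at 0.35 (adjusted p = 0.147) without overlap. The sum of all 13 genes and the 7 copies was 229496 to 257714 TPM on the ground and 287538 to 316534 in flight gastrocnemius, a mean 21.4% higher without overlap, and 7.10% higher with overlap in the quadriceps.

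**Figure D4:**
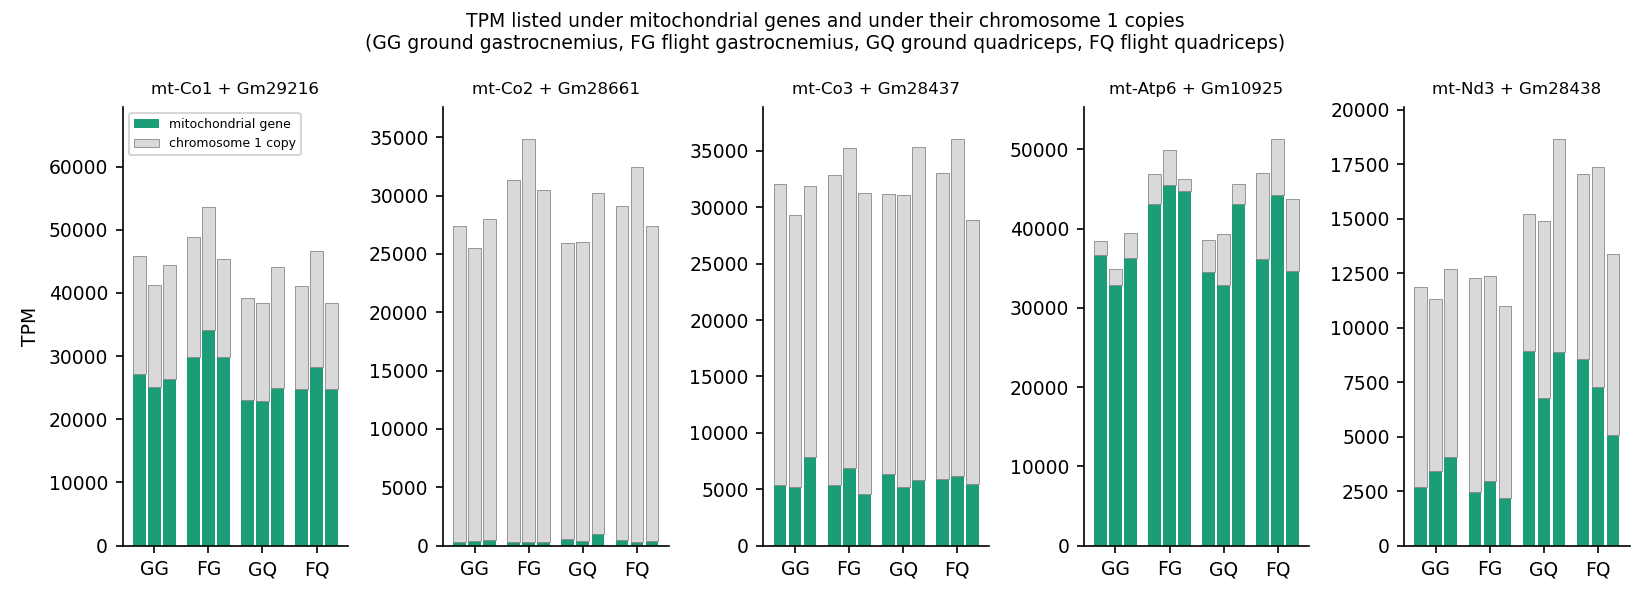
TPM (vertical axes, from 0) listed under 5 mitochondrial genes (green) and under their copies on chromosome 1 (grey), stacked for each library, 3 libraries per group. Nearly all of the mt-Co2 signal stands under the copy, and the split of mt-Nd3 differs between the muscles (28.2% in ground gastrocnemius, 50.7% in ground quadriceps).

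Whether flight had another effect in one muscle than in the other was tested by an interaction term, fitted to all 12 libraries with a block for the mouse. By this test 0 of the 95 genes and 0 of all genes passed (0.0%). At an unadjusted p under 0.05, 8 mitochondrial genes had the more positive flight effect in the gastrocnemius and 0 the more negative, and for nuclear genes these counts were 1 and 2, against 2.49% and 2.6% of all genes. The count of mitochondrial genes was 0 to 8 over the alternative settings. The median difference was 0.24 over the mitochondrial and -0.02 over the nuclear genes. For mt-Nd1 it was 0.27 (unadjusted p = 0.0126 in limma), for mt-Atp8 0.46 (unadjusted p = 0.0147), for Atp5l -0.48 (unadjusted p = 0.0102) and for Ndufs4 -0.31 (unadjusted p = 0.0184). mt-Nd4l, also among the 5 members of smallest p, was at 0.35.

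The muscles also differed from each other, and the nuclear subunits were lower in the gastrocnemius than in the quadriceps. On the ground, 5 genes were called, all lower in the gastrocnemius (Atp5mpl, Ndufb4, Atp5l, Atp5g2 and mt-Nd3), beside 232 of all genes (2.21%). At an adjusted p under 0.05 and any fold, 37 of the 82 nuclear genes passed, against 8.84% of all genes tested. In the same comparison 44 of 95 cytosolic ribosomal protein genes passed at any fold (median -0.34), and 17 of 78 mitochondrial ones (median -0.25). The median of the 5 adipocyte markers was -0.90 with 1 called lower, and that of the 4 nerve and Schwann cell markers 1.00 with 2 called higher, and their part in the result was not tested. At an unadjusted p under 0.05, 50 nuclear genes were lower and 1 higher, against 23.5% and 4.25% of all genes, and 52 were lower without overlap, against 28.3%. The nuclear median was -0.25, beside -0.12 over all genes, and the mitochondrial median was -0.02. Rescaling without Gm12895 and Gm12896 moved the median of all genes to 0.04, of the nuclear genes to -0.08 and of the mitochondrial genes to 0.15. Relative to all genes, the nuclear median was thus -0.13 as deposited and -0.12 after that rescaling, under which mt-Atp8 and mt-Nd3 were the 2 genes called. Calls fell to 0 without the ground gastrocnemius library of M02 and to 1 without the ground quadriceps library of M03.

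Ndufb4, an accessory subunit of the membrane arm of complex I, was at 131, 139 and 135.5 TPM in ground gastrocnemius and 201, 213 and 236 in ground quadriceps, which put the log2 fold change at -0.67 (SE 0.07, adjusted p = 0.00927). Atp5mpl was at 316.4 to 324.1 against 508.1 to 520.9 TPM (-0.68, SE 0.05, adjusted p = 0.00927), Atp5l at -0.62 (SE 0.08, adjusted p = 0.0113) and Atp5g2 at -0.87 (SE 0.12, adjusted p = 0.0134). None of the 4 overlapped. Summed with their pseudogenes, Atp5g2 was at -0.13 (limma adjusted p = 0.374) with overlap, and Atp5l at -0.36 (adjusted p = 0.0352), below the 1.5-fold limit. Ndufb4 with the pseudogenes Gm16056 and Gm20519 was at -0.82 (adjusted p = 0.0347). The pseudogene Ndufb4c, all of whose 31-base stretches occur in Ndufb4, was not in that sum. Its means were 137 and 154 TPM in ground gastrocnemius and ground quadriceps, and the split of reads between it and Ndufb4 was not tested. Uqcrh, the hinge protein of complex III, and Cox6c, the most abundant nuclear gene of complex IV, passed the adjusted p below the 1.5-fold limit, at -0.49 and -0.50 (both adjusted p = 0.00927). Cyc1, cytochrome c1 of complex III, was the only nuclear gene higher in ground gastrocnemius at an unadjusted p under 0.05 (0.26, adjusted p = 0.126). mt-Nd3 was at -1.29 (SE 0.17, adjusted p = 0.0119), and summed with its copy at -0.44 (SE 0.10, adjusted p = 0.0435), below the 1.5-fold limit.

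After flight, 4 genes were called between the muscles, beside 174 of all genes (1.66%). Without overlap, 30 nuclear genes were lower in the gastrocnemius, against 24.4% of all genes, and 7 mitochondrial genes were higher, against 6.0%. Ndufs4 was lower, with 135, 119.9 and 114 TPM against 192, 202 and 184 in the quadriceps of the same mice (-0.65, SE 0.09, adjusted p = 0.0275), and Atp5l was lower as well (-1.09, SE 0.20, adjusted p = 0.0455). Summed with its pseudogenes, Atp5l no longer passed (-0.52, adjusted p = 0.0710). mt-Nd3 was lower (-1.44, SE 0.20, adjusted p = 0.0275), and summed with its copy no longer passed (-0.42, adjusted p = 0.0994). mt-Atp8 was higher in flight gastrocnemius than in flight quadriceps, where it was at 7306, 8105 and 8125 TPM (0.95, SE 0.08, adjusted p = 0.00771), and on the ground it differed by 0.49 (adjusted p = 0.0378), below the 1.5-fold limit. The gene mt-Atp6 overlaps mt-Atp8 on the mitochondrial genome. Summed with its copy, mt-Atp6 was at 0.015 after flight (limma adjusted p = 0.940) and -0.13 on the ground (adjusted p = 0.389), with overlap in both. The nuclear median was -0.24 and the mitochondrial median 0.18, beside -0.11 over all genes. The mouse as a block gave 6 calls, adding Atp5j and Ndufb4. Without single libraries the calls ran from 0 (without flight quadriceps M11) to 10 (without flight gastrocnemius M11).

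**Figure D5:**
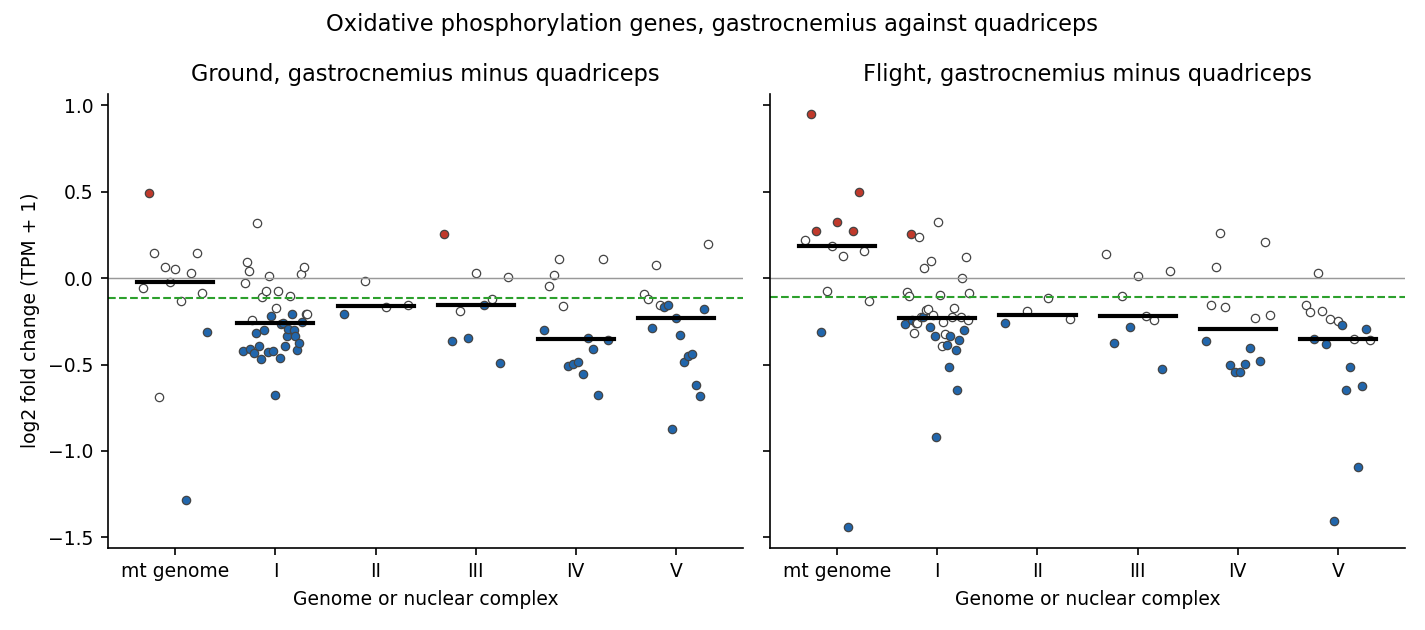
Log2 fold change of gastrocnemius over quadriceps for each gene tested, on the ground and after flight, by complex and genome. Filled points have an unadjusted p under 0.05, bars are medians and the dashed line is the median of all genes (-0.12 on the ground and -0.11 after flight), with the nuclear groups below it.

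The medians of the other lists of the pathway ran from -0.28 (Cycs, Chchd2 and Chchd10) to -0.04 (18 genes of mitochondrial genome expression) in flight gastrocnemius. The lists held 86 tested genes, namely assembly factors, these 3 genes, factors for mitochondrial gene expression and tricarboxylic acid cycle enzymes. Of the 86, 16 were lower and 3 higher in flight gastrocnemius at an unadjusted p under 0.05, against 6.55% and 8.52% of all genes. Their median was -0.12, and 1 passed the call, beside 24 of 10481 genes (0.229%). In quadriceps 12 were lower and 2 higher at that p, against 5.18% and 5.66% of all genes, with a median of -0.08. Cycs, the cytochrome c of somatic tissues, was at -0.28 and -0.04, and citrate synthase (Cs) at -0.18 and -0.12. Of the factors that transcribe or maintain the mitochondrial genome, Tfam was at 0.03 and -0.10, Polrmt, its RNA polymerase, at 0.16 and -0.29, and Lrpprc, which stabilizes its mRNAs, at -0.12 and 0.00. Over the 18 tested genes of mitochondrial genome expression, 2 were lower in flight gastrocnemius at an unadjusted p under 0.05, against 6.55% of all genes. The median was -0.04. Cytosolic ribosomal protein genes, a list outside the pathway, had medians close to those of the nuclear subunits, -0.24 (gastrocnemius) and -0.26 (quadriceps) over 95 tested, and mitochondrial ribosomal protein genes had -0.12 and -0.14 over 78.

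Markers of fiber types differed between ground and flight gastrocnemius. The 8 slow or oxidative fiber markers summed to 2764 to 3456 TPM in ground and 1980 to 2170.0 in flight gastrocnemius without overlap. Of these markers, 3 of 8 were called lower, beside 0.229% of all genes called in either direction, and their median was -0.68. The fast fiber markers summed to 72500 to 74900 against 78890 to 81810. In the quadriceps the slow markers overlapped, at 1933 to 3171 against 1921 to 2461. Adipocyte markers summed to 313 to 574 TPM in ground and 202 to 279 in flight quadriceps without overlap, and overlapped in the gastrocnemius. The part of these cells in the values of oxidative phosphorylation was not tested.

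Promoter windows of 250 bases before to 50 after the start (RefSeq, GRCm38.p6) were held for 66 of the 103 genes and 27025 genes in all, and were searched on both strands for motifs of factors known to act on respiratory genes. GCGCATGC, the core of the NRF-1 site, was in 10 windows (15.2% against 3.05% of all), CCGGAAG, read by GABP, in 16 (24.2% against 9.93%), AAGATGGCG, read by YY1, in 7 (10.6% against 1.64%), AAGGTCA, read by estrogen-related receptors, in 8 (12.1% against 5.38%) and GGGCGG, read by Sp1, in 26 (39.4% against 38.2%). These are descriptions of the letters and not of binding. The stretches below come from genes called in a comparison, are written 5′ to 3′ on the gene's strand, which is the minus strand in each, and have the motif in capitals, reversed and complemented where it lies on the other strand.
Atp5l, NRF-1, chr9:44920963-44920992: aaccaataacGCATGCGCatttcccccact
Atp5l, estrogen-related receptor, chr9:44920737-44920766: gaggggcagccTGACCTTggaaatggggaa
Atp5g2, NRF-1, chr15:102671071-102671100: tggctccggccGCGCATGCgcagagccttc
Ndufb4, estrogen-related receptor, chr16:37654405-37654434: tcctgagcctgAAGGTCAgactcgagaggg
Ndufs4, YY1, chr13:114388045-114388074: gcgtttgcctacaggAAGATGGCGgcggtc

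Splicing was listed for 7 exon events in 6 of the genes in each muscle, among them Ndufb8, Sdhc and Ndufs1, and 6 of the 7 events passed the read and PSI limits. PSI is the percent of transcripts that include an exon, from reads across its junctions. In either muscle 0 of the 6 were called by limma, against 8 of 2118 events in the gastrocnemius (0.378%) and 0 of 2062 in the quadriceps (0.0%). At an unadjusted p under 0.05 there was 1 in the gastrocnemius, against 9.49% of all events, and 0 in the quadriceps, against 7.76%. The lowest p was for a 104-base exon of Ndufs1 without coding bases (chr1:63172154-63172257), with a PSI of 7.14%, 6.49% and 7.69% in the ground and 0.952%, 3.08% and 2.97% in the flight gastrocnemius samples. The groups did not overlap, at a ΔPSI of -4.78 percentage points (limma adjusted p = 0.313, exact permutation p = 0.1, the smallest that 3 against 3 allow). These values rest on 1 to 10 inclusion reads per sample, and the quadriceps samples overlapped. The mutually exclusive exon of Ndufb8 had a PSI of 54.8% ± 2.46 (SD, n = 3) in ground and 55.9% ± 1.67 in flight gastrocnemius, and that of Sdhc 25.7% ± 5.26 and 27.9% ± 6.25.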

How the data were processed

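The authors sequenced stranded polyA libraries with single-end reads of 50 bases, estimated transcript abundance with kallisto (0.46.0 per the labels), and deposited it as TPM per gene through tximport. Junction reads per splicing event were deposited by the authors from STAR (2.7.1a) and rMATS-turbo on mm10 (GRCm38), with the samples of a group unnamed. The authors' DESeq2 (1.26.0) needs counts and was not used here. The annotation release behind the TPM table is not given in the sources used here.

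Genes with TPM above 5 in at least 1 library were kept (10481) and tested with limma 3.58.1 in R 4.3.3 (lmFit, eBayes with trend, two-sided) on log2(TPM + 1), on the 2 groups compared. Called means an adjusted p under 0.05 and a change over 1.5-fold. The interaction used all 12 libraries with the mouse as a block. Events needed over 10 mean junction reads in both groups and were left out where all samples had a PSI of at most 0.05 or of at least 0.95. They were tested on log ratios with 0.5 added to each junction count and called at a ΔPSI over 5 points. The text names the genes called, and most of the 5 of smallest p per comparison and of the largest changes per complex. It gives no values for Ndufb9, among the 5 of smallest p for flight in the quadriceps. None are given for Atp5s either, the largest complex V change of the interaction. By the same rule it names the mitochondrial genes, the most abundant genes, chosen catalytic or structural subunits and tissue forms. Ndufb8, Ndufa5, Ndufv2 and Ndufv3 are outside that rule and were named after their values were seen. Members and lists were chosen with earlier results of these data known. Shared 31-base stretches were counted over GRCm38 transcripts. Both muscles come from the same mice by the numbers in the labels. The same-mouse correlation of library deviations was 0.0943, 0.0143, 0.163, 0.333, 0.179 and -0.119.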

Additional observations from a re-analysis of the deposited data

How the results depend on the processing

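In the gastrocnemius, flight against ground gave 0 members called under all settings except all 12 libraries in one fit (3) and the fits without single libraries (0 to 11, with 11 without the flight library of M11). There the nuclear and mitochondrial medians moved to -0.36 and 0.21 when Gm12895 and Gm12896 were left out of the scaling, and ran from -0.33 to -0.19 and from 0.26 to 0.33 without single libraries. In the quadriceps the call of Atp5g2 was lost (0 called) with a pseudocount of 5, no filter on low values, median-of-ratios scaling, no trend, all 12 libraries, both sums with copies or pseudogenes, and without any single library (0 to 0). The quadriceps medians ran from -0.27 to -0.15 and from 0.04 to 0.14 without single libraries. Between the muscles on the ground, 2 members were called with no filter, with median-of-ratios scaling and without Gm12895 and Gm12896. The nuclear median there was -0.12, -0.19 and -0.077 with median-of-ratios scaling, without the mitochondrial genes and without Gm12895 and Gm12896, and the mitochondrial median 0.10 and 0.15 in the first and last of these. After flight, 0 (no filter), 1 (median-of-ratios), 2 (without mitochondrial genes), 2 (no trend) and 8 (all 12 libraries) were called, and the mitochondrial median was 0.31, 0.29 and 0.30 with median-of-ratios scaling, without the mitochondrial genes and without Gm12895 and Gm12896. Without single libraries the ground calls were 0 to 5 (0 without gastrocnemius M02, 1 without quadriceps M03), with medians of -0.29 to -0.23 and -0.08 to 0.06, and the flight calls 0 to 10 (10 without gastrocnemius M11, 1 without gastrocnemius M12 or M20, 0, 1 and 2 without quadriceps M11, M12 and M20), with medians of -0.31 to -0.21 and 0.13 to 0.23. The interaction had 0 to 0 calls without single mice, with medians of -0.069 to 0.098 and 0.18 to 0.33, and splicing 0 to 0. The causes were not tested. The alternatives that sum copies or pseudogenes, or leave out Gm12895 and Gm12896, were chosen after seeing the data.

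With the replicate number as a block, flight against ground gave 0 calls in either muscle, and the numbers belong to different mice (correlations of -0.180 to 0.111 over 12 pairs). With the mouse as a block, 5 were called on the ground, the same genes as without it, and 6 after flight. The interaction without the block gave 0.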
